A study of Mus musculus with 6 samples.

Results

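The genes described here encode the subunits of the 4 complexes of the mitochondrial respiratory chain and of ATP synthase, measured in cultured mouse brain endothelium with and without the cytokine IL-36β. They were chosen by name alone. All protein-coding genes of the expression table were taken whose symbol starts with Nduf (the assembly factors Ndufaf left out), Uqcr, Cox4i, Cox5, Cox6, Cox7, Cox8, Atp5, mt-Nd, mt-Co, mt-Cytb or mt-Atp, together with Sdha, Sdhb, Sdhc and Sdhd. This gave 99 of the 54532 genes in the table, of which 22046 are protein-coding. Of the 99, 86 lie in the nuclear genome and 13 are all the protein-coding genes of the mitochondrial genome.

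Primary brain microvascular endothelial cells, the cells that line brain capillaries, were grown out of vessel fragments of wild-type C57BL/6J brain, selected with puromycin at first and then cultured to confluence. Of the 6 libraries, 3 came from cells left untreated and 3 from cells exposed for 24 h to 100 ng/ml of a processed mouse IL-36β, written DEVDmIL-36β in the treatment protocol. IL-36β is a cytokine of the interleukin-1 family, and the comparison asks which transcripts differ after exposure to it. The labels give no vehicle or time for the untreated cells, so exposure and time in culture cannot be told apart, and they do not say whether libraries came from separate animals or cultures, so p-values measure only the spread between these libraries.

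In the respiratory chain, complex I (NADH dehydrogenase) and complex II (succinate dehydrogenase) pass electrons through ubiquinone to complex III (cytochrome bc1) and then through cytochrome c to complex IV (cytochrome c oxidase), which reduces oxygen. Complexes I, III and IV pump protons, and complex V, the ATP synthase, uses the gradient to make ATP. Most subunits are encoded in the nucleus and imported, a few core subunits of every complex other than II are encoded in mitochondrial DNA, and brain endothelium is a cell type long described as rich in mitochondria.

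The libraries held 15180389 to 19544689 reads assigned to genes, and levels are given as FPKM, fragments normalised to gene length and to a scaling factor per library, as the authors deposited them. Summed over 12 endothelial markers, levels were 2350 to 2880 FPKM in untreated libraries and 2370 to 2970 in IL-36β libraries, with Cdh5, the endothelial cadherin, at 956 ± 97.1 FPKM (SD, n = 3) untreated and 974 ± 135 with IL-36β. Of the 12, 0 passed in limma and 2 in DESeq2: Cldn5, a tight junction claudin, at 1.65-fold (limma 95% confidence interval 1.12 to 2.43, DESeq2 adjusted p 0.0222), and Slco1a4, a transporter of the blood-brain barrier, at 0.49-fold (0.36 to 0.67, DESeq2 adjusted p 1.58e-05). The 10 markers of pericytes and smooth muscle summed to 401, 707 and 1360 FPKM in untreated libraries 1 to 3 and to 358, 808 and 527 in IL-36β libraries 1 to 3, nearly all of it Acta2, the smooth muscle actin. The smooth muscle myosin Myh11 was 0.47-fold (0.28 to 0.78, adjusted p 0.315 by limma and 0.00447 by DESeq2). Marker sums were at most 2.88 FPKM for fibroblasts, 1.76 for astrocytes, 0.294 for oligodendrocytes, 9.41 for microglia and macrophages and 24.3 for neurons. The part that other cells, or the uneven Acta2, play in the values below was not tested. In bulk RNA, fewer cells of a type and less RNA per cell cannot be told apart.

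No nuclear or mitochondrial gene of the 5 complexes passed the test between IL-36β and untreated cells, yet most nuclear genes lay slightly higher with IL-36β. Of the 99 genes, 91 reached the level needed for testing (0.5 FPKM or more in 3 or more of the 6 libraries), 79 of the 86 nuclear and 12 of the 13 mitochondrial ones. By limma, with Benjamini-Hochberg adjusted p under 0.05 over all 12618 genes tested, 0 of the 91 passed, where 0.182% of all genes did. At an unadjusted p under 0.05, 13 of the 79 nuclear genes (16.5%) were higher with IL-36β, against 5.96% of all genes, and 0 were lower. With edgeR on the reads behind the FPKM, 0 of 91 passed (0.293% of all genes), and with DESeq2 0 of 91 (2.06% of all genes).

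The fitted fold change was above 1 in 71 of 79 nuclear genes (89.9%), where 50.5% of all genes were above 1. The median over the nuclear genes was 0.17 on the log2(FPKM + 0.5) scale, a fold of 1.12, against 0.00 over all genes, and single genes ran from 0.71-fold to 1.53-fold. In 24 of the 79 (30.4%) every IL-36β library was above every untreated library, against 8.95% of all genes, and in 0 was every IL-36β library below. Other families of housekeeping proteins, given below, had shares of 19.0 to 33.3%. The count of 24 rested on how libraries were scaled. It was 8 (10.1%, all genes 4.93%) after scaling to TPM, which gives every library the same sum. After scaling to the summed FPKM of nuclear genes, a setting close to TPM scaling, it was 6 (7.59%, all genes 4.76%). Above 0 were still 58 of 79 genes after scaling to TPM, where 35% of all genes were, and the nuclear median was then 0.09 against -0.08 over all genes. Without IL-36β library 2 the count without overlap was 37 and without IL-36β library 3 it was 41, with 16.7% and 13.1% of all genes.

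A single IL-36β library carried much of the difference. As the mean log2 deviation of the 79 nuclear genes from their untreated mean, untreated libraries 1 to 3 lay at -0.01, 0.00 and 0.01. IL-36β library 1 lay at 0.28, a mean fold of 1.21, with 76 of 79 genes above the untreated mean. IL-36β libraries 2 and 3 lay at 0.09 and 0.10, with 59 and 56 genes above. All 3 IL-36β libraries were thus above the untreated ones, and library 1 stood apart from the other two. The median log2 fold change was 0.11 without IL-36β library 1.

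**Figure D1:**
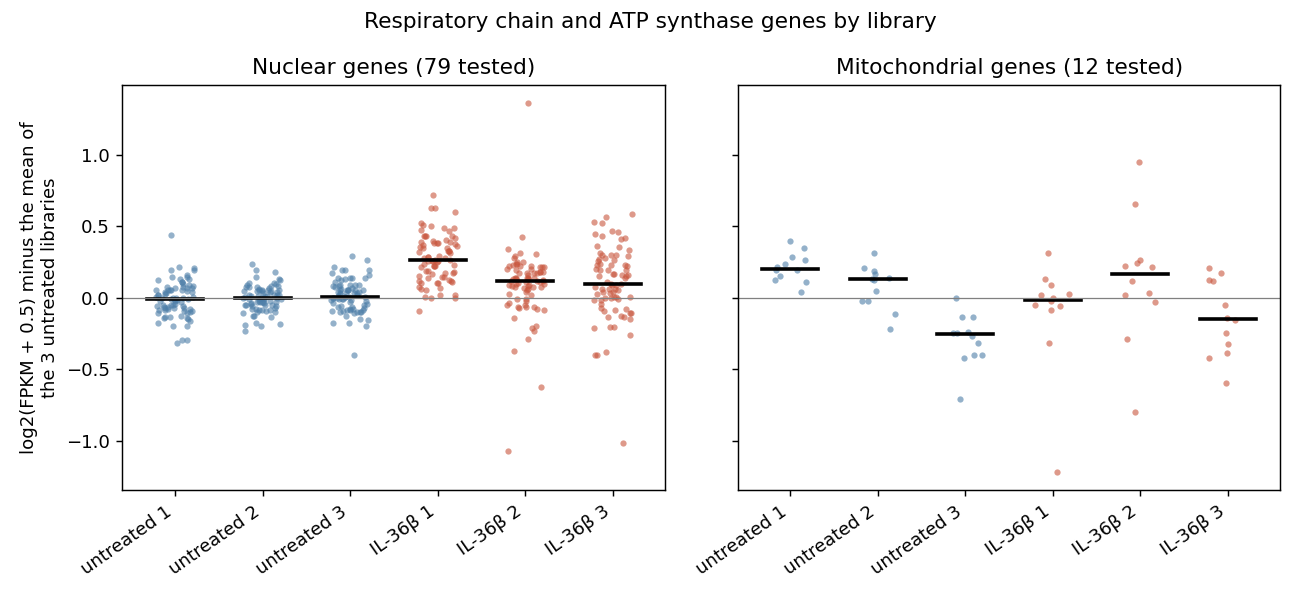
Each point is 1 gene's log2(FPKM + 0.5) in 1 library minus that gene's mean over the 3 untreated libraries, for the 79 nuclear genes tested (left) and the 12 mitochondrial genes tested (right), with a black bar at the median of the library. The nuclear genes sit highest in IL-36β 1, where 76 of 79 are above the untreated mean, and the mitochondrial genes sit lowest in untreated 3, where 0 of 12 are.

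Library names carry the letters A and B (untreated 1 and 2, IL-36β 1) and D and E (untreated 3, IL-36β 2 and 3). The labels do not group the letters, and no source used here says what they stand for. Pooling A with B and D with E into a library set was a choice made here. Within A and B the median nuclear log2 difference was 0.30, and within D and E it was 0.08. Each of these differences has a single library on one side, IL-36β library 1 in A and B and untreated library 3 in D and E. With this library set as a term in limma, 0 of 91 genes passed (0.808% of all genes), the nuclear median was 0.20 and 72 of 79 genes were above 0. With the same term, DESeq2 called 1 of 91 genes, Ndufa2, where it called 3.45% of all genes.

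Promoters of many nuclear genes of the chain are known to bind the factors NRF1, GABP and YY1. RefSeq promoter windows (GRCm38.p6, 250 bases before to 50 after a start) matched 67 of 85 nuclear symbols, in 72 windows. The palindromic NRF1 core, searched as GCGCA, any base, then GCGC, was in 25.0% of the 72 windows, in 4.6% of all 32851 windows of the table and in 10.3% of the 11258 windows of protein-coding genes tested here. The ETS core bound by GABP, CCGGAAG on either strand, was in 22.2% of the genes' windows, 8.86% of all windows and 18.0% of tested genes' windows. AAGATGGC, the YY1 core, was in 12.5%, 2.75% and 4.53%, and TCAAGGTCA, bound by estrogen-related receptors, in 2.78%, 0.423% and 0.275%. The NF-κB site, bound by a factor that interleukin-1 family receptors activate, was in 9.72%, 8.46% and 10.5%, and the TATA box, TATAAA, in 11.1%, 13.6% and 6.75%. All were searched on both strands, and an ETS core can run into a YY1 core, since the end letters of one are the first letters of the other. Windows of the 5 complexes were 57.4% G and C on average, against 61.0% in tested genes and 53.8% in all windows. A match is a description of letters and no evidence of binding. Of the 67 symbols matched, 31 held none of the NRF1, ETS and YY1 cores. A stretch per complex is shown, as an example of a window that holds an NRF1 or ETS core; each ends upstream of the exons of its gene, is written along the gene's strand, and carries the NRF1 or ETS core in capitals.
Ndufa11 (complex I), chr17:56717686-56717761, plus strand: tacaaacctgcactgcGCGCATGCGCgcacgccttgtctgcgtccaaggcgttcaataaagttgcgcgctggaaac
Sdhd (complex II), chr9:50603850-50603909, minus strand: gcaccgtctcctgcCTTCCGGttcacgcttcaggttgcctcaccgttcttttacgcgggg
Uqcr11 (complex III), chr10:80406831-80406980, minus strand: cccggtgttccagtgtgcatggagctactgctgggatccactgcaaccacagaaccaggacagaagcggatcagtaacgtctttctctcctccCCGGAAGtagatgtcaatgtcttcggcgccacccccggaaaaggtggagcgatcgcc
Cox6a1 (complex IV), chr5:115348982-115349129, minus strand: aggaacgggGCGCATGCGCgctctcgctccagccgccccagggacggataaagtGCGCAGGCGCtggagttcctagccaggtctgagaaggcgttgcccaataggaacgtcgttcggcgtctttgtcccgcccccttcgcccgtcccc
Atp5h (complex V), chr11:115419963-115420112, minus strand: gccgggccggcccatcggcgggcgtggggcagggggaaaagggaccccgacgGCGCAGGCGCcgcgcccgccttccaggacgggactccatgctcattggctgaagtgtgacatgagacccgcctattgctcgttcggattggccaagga
The Ndufa11, Cox6a1 and Atp5h stretches show NRF1 cores, and those of Sdhd and Uqcr11 show ETS cores, on the opposite and on the gene's own strand.

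Complex I, the largest complex, held 15 of the 24 nuclear genes whose groups did not overlap. Of its 38 nuclear genes 37 were tested, 33 lay above 0, the median was 0.20 (fold 1.15), and the 15 were 40.5% of those tested, against 8.95% of all genes and with the dependence on scaling given above. Of the 37, 8 had an unadjusted p under 0.05 and were higher (Ndufa6, Ndufa8, Ndufa11, Ndufb7, Ndufb9, Ndufc1, Ndufc2 and Ndufs5), which is 21.6%, against 5.96% of all genes.

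Ndufb7, an accessory subunit of the membrane arm (chr8:83566671-83571626, GRCm38), had the smallest adjusted p of all 91 genes. It was at 8.55, 8.13 and 8.31 FPKM in untreated libraries and at 11.4, 10.7 and 11.4 with IL-36β. The groups were far apart beside their spread, with 1.32-fold (95% confidence interval 1.15 to 1.52, the interval given in parentheses throughout) and an adjusted p of 0.167 by limma. It was 1.35-fold within the A and B libraries and 1.31-fold within D and E, and adjusted p was 0.139 by edgeR and 0.0533 by DESeq2.

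Ndufa8, an accessory subunit on the intermembrane-space side and the most abundant nuclear gene of complex I, was at 90.5, 99.7 and 98.7 FPKM untreated and 134, 112 and 129 with IL-36β. No IL-36β library fell within the untreated range, and the fold was 1.29 (1.09 to 1.53, adjusted p 0.298 by limma). Ndufa2, an accessory subunit of the peripheral arm, was at 63.6, 63.7 and 56.8 FPKM untreated and 101, 66.4 and 73.3 with IL-36β. Here IL-36β library 1 stood well above the other two, which lay just above the untreated range. The fold was 1.29 (0.99 to 1.67, adjusted p 0.494 by limma), 1.58 within A and B and 1.23 within D and E, and DESeq2 with the set term gave an adjusted p of 0.0463.

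Ndufa12, another accessory subunit of the peripheral arm, had the highest fitted fold of all nuclear genes, and it came from 1 library. Untreated libraries held 7.85, 7.36 and 7.05 FPKM and IL-36β libraries 10.6, 19.8 and 7.43. IL-36β library 2 was far above the rest, while library 3 lay inside the untreated range. The fold of 1.53 (0.93 to 2.51, adjusted p 0.539 by limma) was 1.18 without IL-36β library 2. Of its 50-base windows, 17.7% also occur in transcripts of other genes.

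Core subunits of complex I encoded in the nucleus ran from 0.99-fold to 1.19-fold. Some accessory subunits lay as near to 1, such as Ndufa7 at 0.97-fold and Ndufb3 at 1.00-fold. Ndufv1, which binds NADH, was 1.19-fold (1.00 to 1.41) and Ndufs8 1.15-fold (0.94 to 1.39), both without overlap of groups. Ndufs3 and Ndufs7 were 1.10-fold, Ndufs1 1.01-fold and Ndufv2 0.99-fold, with overlap. Ndufv1 was at 14.1, 15.8 and 17.1 FPKM untreated and 18.8, 17.2 and 20.1 with IL-36β, while Ndufs1, at 7.75, 8.45 and 8.28 against 8.13, 9 and 7.7, overlapped fully. Ndufa4, named with complex I but since found in complex IV, was the lowest of the 37 at 0.93-fold (0.67 to 1.30, adjusted p 0.878). It was at 17.2, 22.4 and 19.3 FPKM untreated and 25.3, 15.9 and 14.9 with IL-36β, so that IL-36β library 1 lay above and the other two below all untreated libraries. Its paralog Ndufa4l2, known as hypoxia-induced, was too low to test at 0.464 ± 0.116 and 0.499 ± 0.304 FPKM and made up 1.38 to 3.15% of the pair.

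Complex II, which also serves the tricarboxylic acid cycle and is encoded in the nucleus alone, was the steadiest of the 5. All 4 genes were above 0, with a median of 0.06 (fold 1.04), and all 4 had overlapping groups. Sdha, the flavoprotein that oxidises succinate, was at 47.7, 53.2 and 50.1 FPKM untreated and 52.7, 49.6 and 52.6 with IL-36β, 1.03-fold (0.89 to 1.18, adjusted p 0.895 by limma). Sdhb, the iron-sulphur subunit, was at 41.8, 39.4 and 44.7 against 46.3, 41.6 and 44.7 FPKM, 1.05-fold (0.91 to 1.22, adjusted p 0.794).

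Both membrane anchors overlapped as well. Sdhc was at 27.2, 28.3 and 29.7 against 28.8, 31.3 and 31.8 FPKM, 1.08-fold (0.94 to 1.24), and Sdhd at 66.3, 69.6 and 63.6 against 72.4, 64.7 and 66.5, 1.02-fold (0.88 to 1.18). Over the 4 genes, the intervals reached down to 0.88 and up to 1.24. Of the 4, 3 were below 1 after scaling to TPM, at log2 values of -0.05 for Sdha, -0.01 for Sdhb and -0.06 for Sdhd.

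Of the 8 nuclear genes of complex III, all were tested, 7 lay above 0 with a median of 0.12 (fold 1.09), and all had overlapping groups. The most abundant, Uqcr10, a small membrane subunit, was the exception below 0: it was at 80.2, 69.6 and 68.0 FPKM untreated and 82.5, 55.8 and 62.6 with IL-36β, 0.91-fold (0.71 to 1.17, adjusted p 0.785 by limma). IL-36β library 1 was the highest and libraries 2 and 3 the lowest of the 6. The other small subunits lay higher, with Uqcr11 at 1.28-fold (0.93 to 1.76), Uqcrq at 1.23-fold (0.95 to 1.59), Uqcrb, which lines the ubiquinone site, at 1.19-fold (1.00 to 1.43) and Uqcrh, the hinge subunit, at 1.09-fold (0.89 to 1.34). The large subunits were nearer to 1: Uqcrfs1, the Rieske iron-sulphur protein, at 1.08-fold, Uqcrc1 at 1.08-fold and Uqcrc2 at 1.00-fold, each with an interval that spanned 1. The within-set medians were 0.28 in A and B and 0.01 in D and E.

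In complex IV, 13 of 18 nuclear genes were tested, 11 lay above 0 and the median was 0.17 (fold 1.12). Groups did not overlap in 2 (Cox5a and Cox6b1), which is 15.4%, against 8.95% of all genes, on the deposited scale. Cox6a1, a subunit that helps regulate the enzyme, was the most abundant nuclear gene of the chain, at 258, 281 and 312 FPKM untreated and 338, 247 and 324 with IL-36β. IL-36β library 2 was the lowest of the 6 and library 1 the highest, and the fold was 1.06 (0.83 to 1.35, adjusted p 0.862 by limma). Cox5b, a matrix-side subunit, was the only nuclear gene of complex IV with an unadjusted p under 0.05 by limma (7.69%, where 5.96% of all genes were higher). It was at 22.4, 19.7 and 25.8 FPKM untreated and 32.2, 23.8 and 34.0 with IL-36β. IL-36β library 2 lay inside the untreated range, and the fold was 1.31 (1.01 to 1.70, adjusted p 0.463). Within A and B it was 1.52-fold and within D and E 1.10-fold.

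Several complex IV subunits exist as isoforms with a widespread member and members of heart, muscle, lung or testis, and in the Cox4i, Cox6a, Cox6b and Cox8 families the widespread isoform took 98.1% or more of the FPKM in every library. Cox4i1 made up 99.7 to 100% of its pair, at 141 ± 7.96 FPKM (SD, n = 3) untreated and 152 ± 14.7 with IL-36β, 1.07-fold (0.90 to 1.28). Cox4i2, the lung isoform, was at 0.234, 0.501 and 0 FPKM against 0.245, 0.0772 and 0.0698, from 11 and 5 reads. Cox6a1 made up 99.9 to 100% beside the heart and muscle isoform Cox6a2, which had 3 reads untreated and 0 with IL-36β. That count of 0 allows a mean of up to 0.088 FPKM.

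Cox6b1, at 131 ± 5.14 and 151 ± 7.59 FPKM, made up 98.1 to 99.6% of its pair and was 1.15-fold (0.99 to 1.34, adjusted p 0.503 by limma). Its testis isoform Cox6b2 was the lowest nuclear gene by fold, at 2.5, 1.65 and 1.17 FPKM untreated and 1.98, 0.933 and 0.595 with IL-36β. These groups overlapped, and the fold was 0.71 (0.41 to 1.22, adjusted p 0.629). Cox8a, at 175, 181 and 195 FPKM untreated and 257, 156 and 244 with IL-36β, was the one member of its family with reads, since Cox8b (heart and muscle) and Cox8c (testis) had 0 reads in all 6 libraries, as had Cox7b2. A count of 0 allows group means of up to 0.166 FPKM for Cox8b, 0.131 for Cox8c and 0.11 for Cox7b2, for counting error only.

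The Cox7a family was the one split between members. Cox7a2 made up 49.2 to 54.3% and Cox7a2l, known as an assembly factor for supercomplexes of III and IV, 45.3 to 50.4%. Cox7a2 was at 77.8, 76.0 and 72.7 FPKM untreated and 94.8, 85.2 and 77.7 with IL-36β, 1.13-fold (0.96 to 1.34, adjusted p 0.579 by limma), with IL-36β library 3 just inside the untreated range. Cox7a2l was at 69.1, 74.8 and 74.6 against 79.0, 74.9 and 74.3, 1.04-fold (0.91 to 1.20). Cox7a1, the heart and muscle isoform, was at 0.345, 0.738 and 0.608 FPKM untreated and 0.723, 0 and 0.411 with IL-36β, 0.78-fold (0.45 to 1.37, adjusted p 0.748), and 1.00-fold without IL-36β library 2, where it was listed at 0.

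In complex V, 17 of 18 nuclear genes were tested, 16 lay above 0, the median was 0.17 (fold 1.12), and in 7 of 17 (41.2%, against 8.95% of all genes, on the deposited scale) the IL-36β libraries were all above the untreated ones. The F1 head and stalk were led by Atp5b, the catalytic β subunit, at 176, 195 and 208 FPKM untreated and 213, 202 and 197 with IL-36β. These groups overlapped, with 1.06-fold (0.89 to 1.25, adjusted p 0.803 by limma), and Atp5a1, the α subunit, was 1.09-fold (0.93 to 1.28). Among the central stalk genes, Atp5c1, the γ subunit, and Atp5d, the δ subunit, lay higher. Atp5c1 was at 49.1, 54.3 and 46.5 against 56.9, 61.1 and 58.3 FPKM, 1.18-fold (1.01 to 1.37), and Atp5d at 89.7, 85.5 and 79.9 against 112, 89.6 and 123 FPKM, 1.26-fold (1.02 to 1.56). Atp5d overlapped through IL-36β library 2, just below the highest untreated library, and both genes had an adjusted p of 0.454 by limma. Atp5e, the ε subunit of the same stalk, was 1.12-fold (0.91 to 1.38) with overlapping groups.

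The membrane ring of ATP synthase is built from 1 protein, subunit c, that 3 genes encode with different import sequences. Atp5g3 made up 43.3 to 48.1% of their FPKM, Atp5g2 40.4 to 44.6% and Atp5g1 8.87 to 12.7%. Atp5g1 was at 8.50, 9.33 and 11.9 FPKM untreated and 13.4, 12 and 13.7 with IL-36β. Every IL-36β library was above every untreated one, by a narrow gap at untreated library 3, and the fold was 1.31 (1.05 to 1.63, adjusted p 0.399 by limma). It was 1.47-fold within A and B and 1.07-fold within D and E. Atp5g2 was 1.08-fold (0.92 to 1.27), with 38.3% of its windows shared with other transcripts, and Atp5g3 was 1.06-fold (0.93 to 1.21) and steady at 46.1, 46.2 and 46.5 FPKM untreated against 50.2, 50.2 and 46.5. Of the peripheral stalk, Atp5j was 1.19-fold (1.02 to 1.39), Atp5h 1.12-fold and Atp5o 1.15-fold, each without overlap of groups, and Atp5f1 was 1.04-fold (0.86 to 1.27). Atp5s, the coupling factor B gene, was the one gene below 0, at 4.26, 5.33 and 6.63 against 4.96, 5.07 and 3.91 FPKM, 0.88-fold (0.67 to 1.16, adjusted p 0.731). A second gene named Atp5o (ENSMUSG00000116933), which shares 89.8% of its windows with other transcripts, had 0 reads in all libraries.

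**Figure D2:**
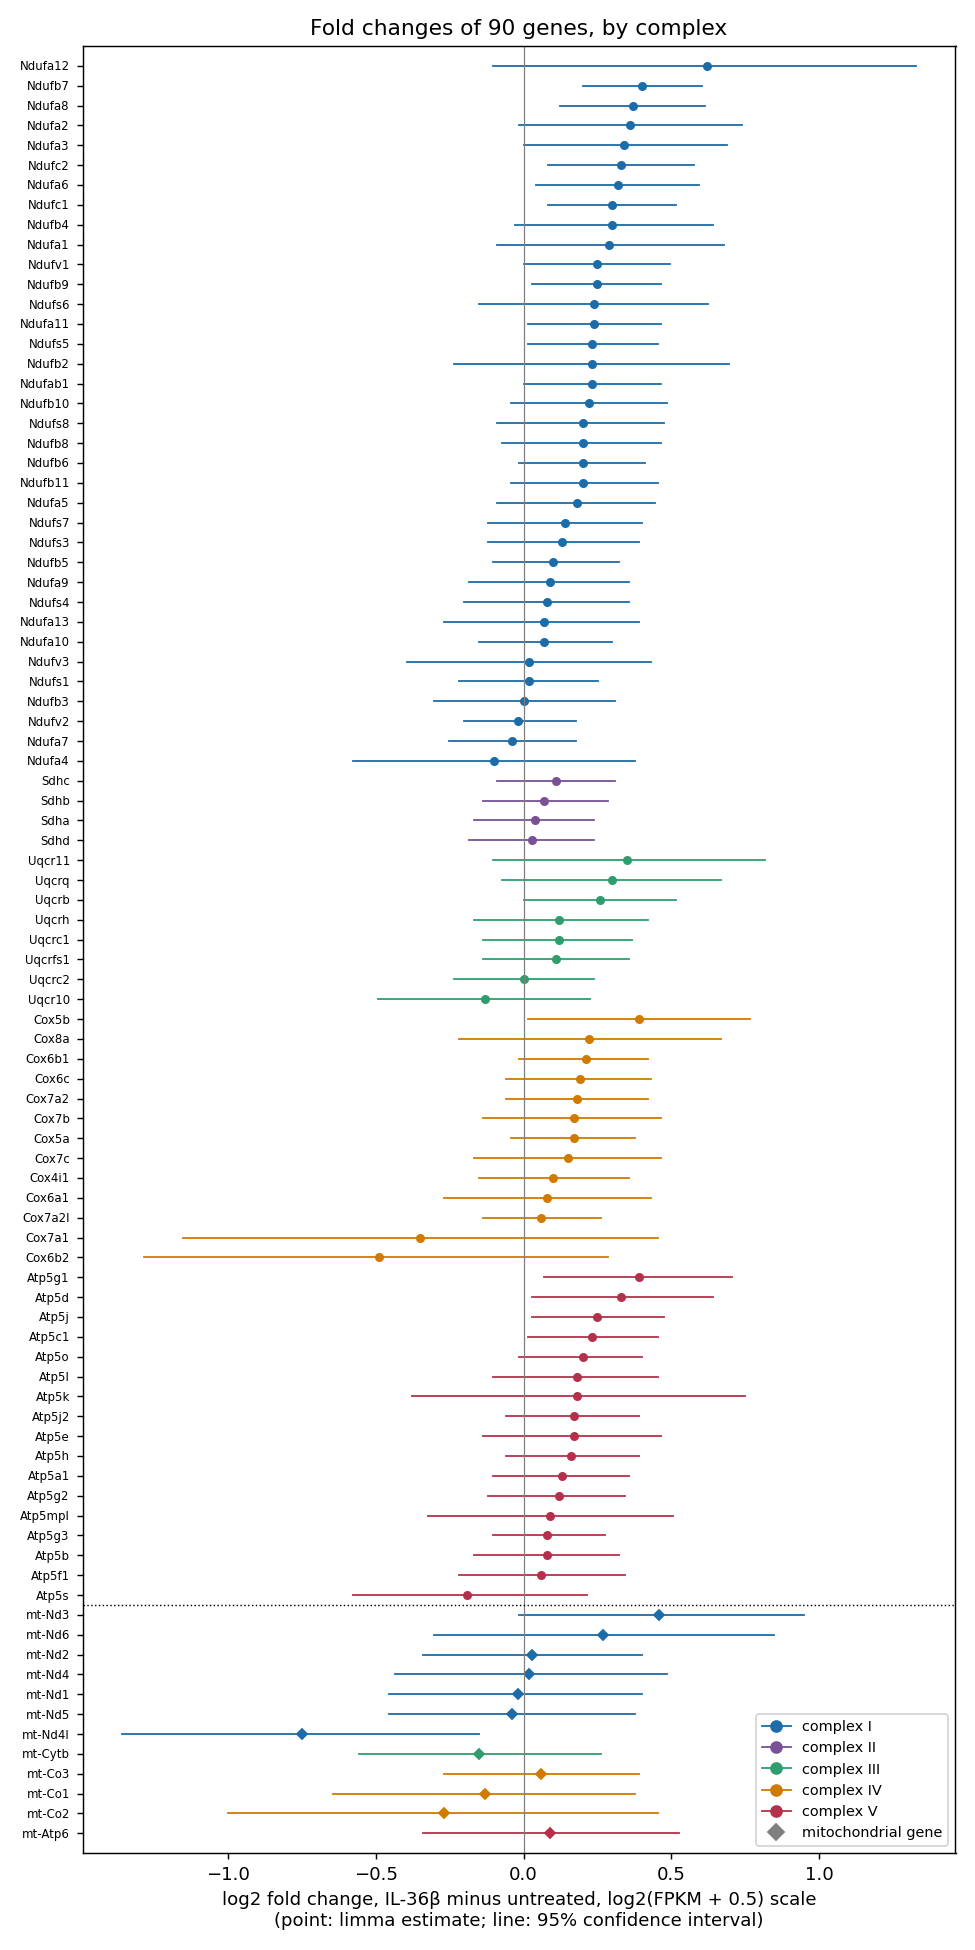
Fitted log2 fold change (IL-36β minus untreated, log2(FPKM + 0.5) scale, limma) with its 95% confidence interval for 90 of the 91 genes tested, sorted within complex, mitochondrial genes below the dotted line. Most nuclear points lie right of 0, the 4 complex II genes lie between 0.03 and 0.11, and the mitochondrial points fall on both sides.

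The 13 mitochondrial genes showed no common direction. Of 12 tested, 6 lay above 0, the median was 0.00, and 0 passed the threshold. At an unadjusted p under 0.05, 1 was lower (mt-Nd4l, where 4.41% of all genes were lower) and 0 were higher. Groups did not overlap in 1 gene that was higher, mt-Nd3 (8.33% of those tested, where 8.95% of all genes were higher). They also did not overlap in 1 that was lower, mt-Nd4l, where 7.24% of all genes were lower. Replicates also spread more: the median coefficient of variation between libraries was 18.3% untreated and 16.2% with IL-36β, against 6.72% and 9.05% for the nuclear genes.

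The spread ran through most mitochondrial genes at once. As mean log2 deviation from the untreated mean, untreated libraries 1 to 3 lay at 0.21, 0.08 and -0.29 and IL-36β libraries 1 to 3 at -0.10, 0.13 and -0.14. Untreated library 3 was the lowest, with 0 of 12 genes above the untreated mean. It had the highest pericyte and smooth muscle marker sum of the untreated libraries, while IL-36β library 2, with the highest marker sum of its group, had the highest mitochondrial deviation of its group. Whether the marker sums bear on the mitochondrial levels was not tested. The mitochondrial genes took 1.22, 1.18 and 0.857% of reads in untreated libraries and 1.07, 1.11 and 0.828% with IL-36β, and their summed FPKM was 8968, 8598 and 6426 against 7864, 8619 and 6624. The low library of each group lay below both libraries 1 and 2 of either group. The median log2 fold change was -0.13 without untreated library 3, and it was -0.18 within A and B and 0.27 within D and E, opposite in sign. The value within D and E rests on untreated library 3 as its only untreated library. That within A and B rests on IL-36β library 1 as its only treated library, so the signs are no separate comparison.

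Levels differed by orders of magnitude among genes that are transcribed as parts of shared precursors. mt-Co1, the catalytic subunit of complex IV, was the highest, at 4530, 4310 and 3180 FPKM untreated and 4030, 3880 and 3030 with IL-36β, 0.91-fold (0.64 to 1.30, adjusted p 0.853 by limma). The complex I genes mt-Nd1, mt-Nd2, mt-Nd4 and mt-Nd5, which form its proton-pumping membrane arm, had means of 538 to 755 FPKM untreated and 540 to 744 with IL-36β, with folds of 0.98, 1.02, 1.02 and 0.98. mt-Cytb, the cytochrome b of complex III, was at 713, 802 and 584 FPKM against 670, 702 and 519, 0.90-fold (0.68 to 1.20, adjusted p 0.784). In each of these the low library of each group was library 3, mt-Nd5 with IL-36β excepted. mt-Nd6, the one protein gene on the opposite strand, was at 864, 779 and 531 against 682, 1120 and 820 FPKM, 1.21-fold (0.81 to 1.80, adjusted p 0.728). No source used here gives the strand setting that was counted with, so reads of mt-Nd6 and of the transcript opposite to it cannot be told apart.

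Another 5 tested genes were measured far lower, and each of these has a near-identical copy of almost its whole length in the nuclear genome. mt-Co2 was at 39.3, 37.2 and 18.0 FPKM untreated and 31.7, 24.3 and 19.5 with IL-36β, 0.83-fold (0.50 to 1.37). mt-Co3 was at 19.0, 15.5 and 13.2 against 15.5, 16.1 and 17.8, 1.04-fold (0.83 to 1.31), and mt-Atp6, the proton channel subunit of ATP synthase, at 18.5, 17.6 and 11.7 against 14.7, 18.6 and 17, 1.07-fold (0.79 to 1.44). The groups of these 3 genes overlapped. mt-Nd3 was at 6.72, 5.67 and 6.17 FPKM untreated and 7.78, 12.4 and 6.79 with IL-36β, and although each IL-36β library was above each untreated one, library 3 was so by little: 1.38-fold (0.99 to 1.93, adjusted p 0.502 by limma). mt-Nd4l was at 10.6, 6.98 and 7.44 FPKM untreated and 3.25, 4.51 and 6.85 with IL-36β, each IL-36β library below each untreated one, by a narrow gap at IL-36β library 3. The fold was 0.59 (0.39 to 0.90, adjusted p 0.398), and 0.70 without IL-36β library 1.

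In these 5 genes 98.0 to 100% of 50-base windows also occur in a transcript annotated elsewhere, mainly a run of pseudogenes on the minus strand of chromosome 1. The pseudogenes matching mt-Co2 (Gm28661), mt-Atp6 (Gm10925), mt-Co3 (Gm28437) and mt-Nd4l (Gm10222) were identical over their 681, 678, 783 and 294 aligned bases, and that matching mt-Nd3 (Gm28438) had 1 mismatch in 345. The share was 62.2% in mt-Nd4, whose copy Gm28439 was identical over 876 bases, 51.1% in mt-Co1, whose copy Gm29216 was 98.8% identical over 492 bases, and 0 to 8.2% in mt-Nd1, mt-Nd2, mt-Nd5, mt-Nd6 and mt-Cytb. Reads were also assigned to the copies, with group means of 22.1 ± 7.46 FPKM untreated and 18.2 ± 5.75 with IL-36β for Gm28661 and 4.07 ± 0.873 and 3.43 ± 1.92 for Gm10222. No source used here says how reads with several matches were counted, and the part this plays in the levels and folds of these genes was not tested. For the 5 tested genes with under 10% of shared windows the median was -0.02, and for the 7 with more it was 0.02. The pairs below show 80 bases of the 2 genes whose groups did not overlap beside the nuclear copy (GRCm38, each along its gene's strand), with the 1 mismatch in capitals; the mt-Nd4l pair has 0 mismatches.
mt-Nd3, chrMT:9459-9538, plus strand: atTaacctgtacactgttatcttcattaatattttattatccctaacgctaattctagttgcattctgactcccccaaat
Gm28438, chr1:24613040-24613119, minus strand: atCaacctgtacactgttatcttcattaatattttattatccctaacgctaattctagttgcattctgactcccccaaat
mt-Nd4l, chrMT:9984-10063, plus strand: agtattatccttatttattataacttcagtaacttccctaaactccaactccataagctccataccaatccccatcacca
Gm10222, chr1:24612514-24612593, minus strand: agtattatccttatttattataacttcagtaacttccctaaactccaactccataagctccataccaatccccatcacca
A read that lies within such a stretch carries little or nothing that tells the gene from its copy. mt-Atp8, the short gene that overlaps the start of mt-Atp6, was not tested: it had 1 read in each group, 0.319 FPKM in untreated library 3 and 0.316 in IL-36β library 1, and 0 in the other libraries. Of its windows, 0% occur in annotated transcripts of other genes. In mitochondrial DNA mt-Atp8 lies between mt-Co2 and mt-Atp6, whose copies are neighbours at chr1:24614885-24615565 and chr1:24613974-24614651. Sequence outside annotated transcripts, such as that between these copies, was not searched. The 0% therefore does not show that mt-Atp8 lacks a nuclear copy.

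**Figure D3:**
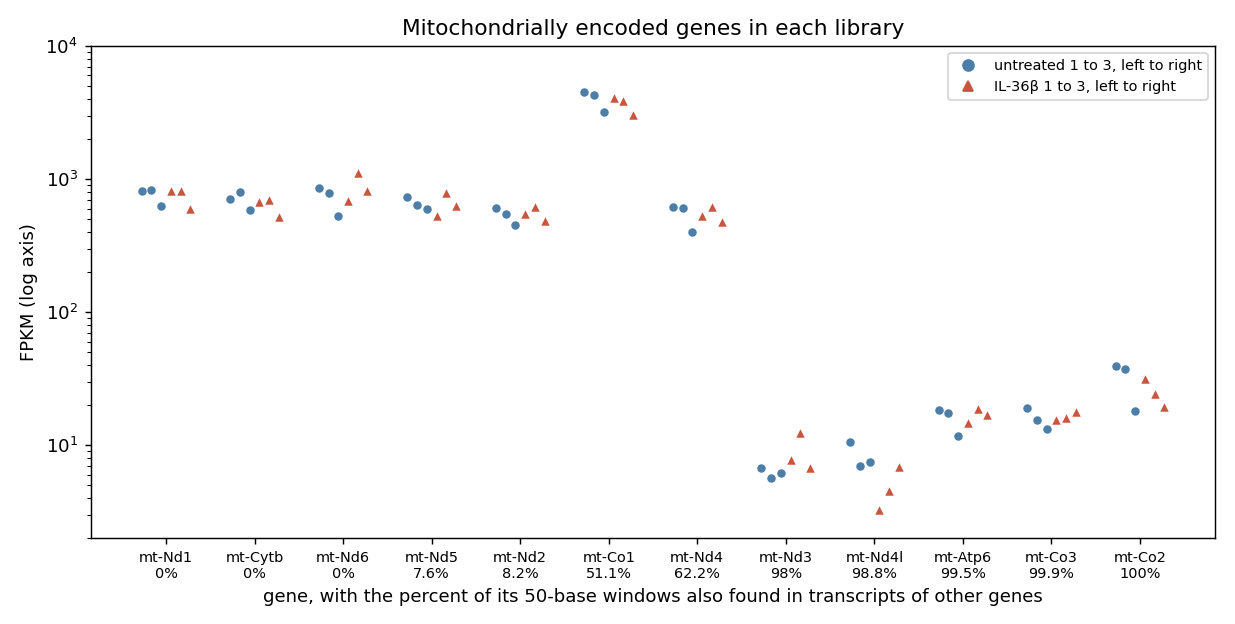
FPKM (log axis) of 12 mitochondrial genes in each library, ordered by the percent of a gene's 50-base windows that are also found in transcripts of other genes; mt-Atp8, with 0 in 4 libraries, is not drawn. The 5 genes at 98 to 100% lie between 3.25 and 39.3 FPKM and the other 7 at 401 FPKM or more.

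The nuclear and mitochondrial genes therefore differed in their median by -0.17 on the log2 scale (mitochondrial minus nuclear). Taken in each library as means over genes, the same contrast had a pooled SD of 0.25 between replicates, larger than this difference. That SD came from the mitochondrial side (SD 0.21, against 0.07 for the nuclear mean). It measures single libraries and is not the error of a difference between groups. The difference was -0.30 without untreated library 3 and -0.07 without IL-36β library 1, the largest and the smallest size among the values with 1 library left out. As summed FPKM, the nuclear genes went from 3325, 3382 and 3463 in untreated libraries to 4121, 3544 and 3776 with IL-36β, without overlap, while the mitochondrial sums given above overlapped. The FPKM sum over all genes also separated the groups, at 271750, 273249 and 280748 against 293373, 286371 and 296110. As a share of those sums the nuclear genes took 1.22, 1.24 and 1.23% untreated and 1.40, 1.24 and 1.28% with IL-36β, so that IL-36β library 2 was no longer above the untreated libraries.

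Nuclear genes of the 5 complexes are short and abundant, and other genes of that kind also lay above 0, a comparison chosen after the values were seen. Among other protein-coding genes with a mean of at least 10 FPKM, the median log2 fold change was 0.18 in 134 genes of up to 1000 bases, 0.13 in 626 genes of over 1000 to 2000 bases, 0.06 in 1637 genes up to 4000 bases and -0.01 in 1984 longer ones. In the same classes the nuclear genes of the complexes had medians of 0.21 (19 genes), 0.17 (30), 0.11 (19) and 0.12 (11). Above 0 were 80.6% of the other short, abundant genes and 84.2% of the short nuclear genes of the complexes, and 47.7% against 100% in the longest class. In other families of housekeeping proteins, likewise chosen afterwards, 80 of 84 genes of cytosolic ribosomal proteins were above 0 with a median of 0.23, 64 of 77 of mitochondrial ribosomal proteins with 0.16, and 36 of 39 of proteasome subunits with 0.13. On the deposited scale every IL-36β library was above every untreated one in 16 (19.0%), 18 (23.4%) and 13 (33.3%) of these genes. The share was 30.4% in the nuclear genes of the complexes. After scaling to TPM the family medians were 0.15, 0.08 and 0.05, with 72, 51 and 26 genes above 0. Of these, 1 gene passed the threshold, Psmb10, an immunoproteasome subunit, at 8.74, 8.08 and 6.45 FPKM untreated and 18.8, 16.3 and 21 with IL-36β (2.33-fold, adjusted p 0.0322 by limma). IL-36β library 1 was the highest of the 6 in each of these families too, at mean log2 deviations of 0.28, 0.20 and 0.28. For the cytosolic ribosomal proteins the groups did not separate: untreated library 3 lay at 0.23, and IL-36β libraries 2 and 3 at 0.23 and 0.12. For the mitochondrial ribosomal proteins and proteasome subunits, every IL-36β library lay above every untreated one. What length and abundance contribute to the difference was not tested.

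**Figure D4:**
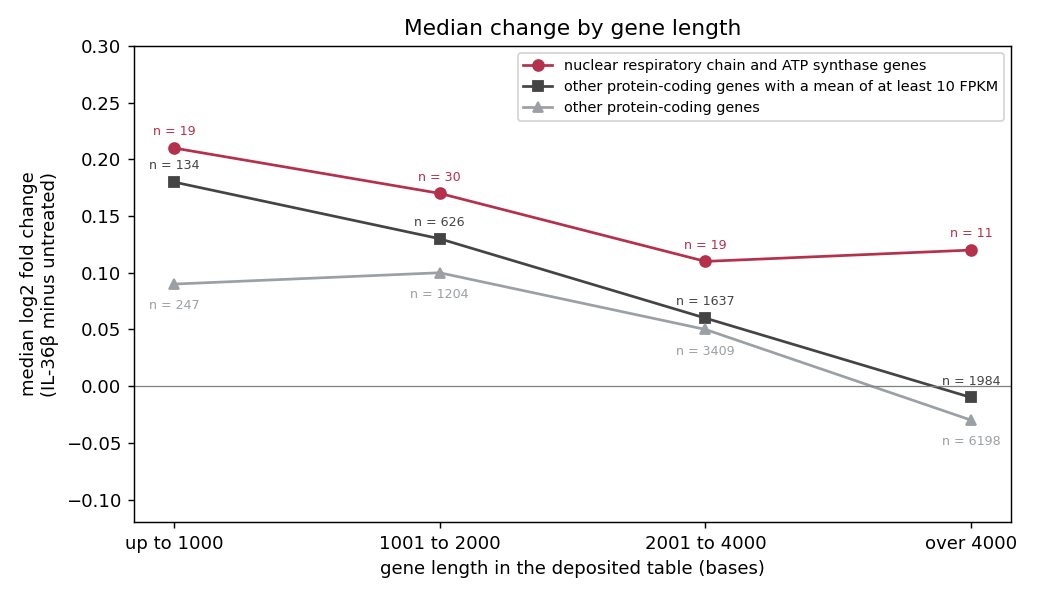
Median log2 fold change (IL-36β minus untreated) in 4 classes of gene length in bases, for the nuclear respiratory chain and ATP synthase genes, for other protein-coding genes with a mean of at least 10 FPKM and for all other protein-coding genes, with the number of genes beside each point. All 3 lines are lower at over 4000 bases than at up to 1000, and the other abundant genes go from 0.18 to -0.01.

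Genes that serve the chain without being named for it were listed for comparison, and 0 of their tested members passed the threshold in limma, edgeR or DESeq2. At an unadjusted p under 0.05 by limma, 4 of 114 were higher (Ndufaf3, Ndufaf8, Cox16 and Idh3g), 3.51% against 5.96% of all genes, and 2 lower (Fmc1 and Fastkd3), 1.75% against 4.41%. Cyc1 (cytochrome c1 of complex III), Cycs (cytochrome c) and other components outside the name rule had 5 of 6 genes above 0 and a median of 0.14, with Cyc1 at 46.5 ± 3.20 FPKM untreated and 50.3 ± 4.91 with IL-36β, 1.08-fold (0.91 to 1.28), and Cycs 1.13-fold (0.96 to 1.33). The most abundant of them were Usmg5, a small ATP synthase subunit, at 138 ± 8.75 and 159 ± 46.4 FPKM, 1.12-fold (0.79 to 1.59), and Higd2a, a supercomplex factor, 1.01-fold (0.68 to 1.5). Of 18 complex I assembly factors 13 were above 0, with a median of 0.07. Ndufaf8, at 12.4, 12.3 and 11.8 FPKM untreated and 17.5, 16.3 and 14.8 with IL-36β, was 1.32-fold without overlap (1.13 to 1.53, adjusted p 0.209 by limma), Ndufaf3 was 1.25-fold (1.04 to 1.49, adjusted p 0.405). The abundant Dmac1 was 1.15-fold (0.94 to 1.40).

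Assembly factors of complexes II to V were evenly spread, with 15 of 32 above 0 and a median of -0.01. The abundant Coa3 was 1.10-fold (0.92 to 1.33) and Tmem70, an ATP synthase assembly factor, 0.90-fold (0.61 to 1.34), while Cox16 was 1.35-fold (1.07 to 1.71) and Fmc1 0.64-fold (0.41 to 0.99), with adjusted p of 0.386 and 0.477 by limma. Regulators of mitochondrial biogenesis had 4 of 8 above 0 and a median of 0.01: Nrf1 was 0.96-fold (0.80 to 1.16), Gabpa 0.90-fold (0.78 to 1.04), Esrra 1.06-fold (0.87 to 1.28), Yy1 0.99-fold (0.86 to 1.14) and Nfe2l2 1.10-fold (0.94 to 1.29). Ppargc1a, the coactivator called PGC-1α, was too low to test, at 0 to 0.0899 FPKM in all 6 libraries.

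For mitochondrial DNA replication and transcription, 5 of 13 genes were above 0 with a median of -0.02, and Tfam, which packages and transcribes mitochondrial DNA, was at 4.44, 4.89 and 4.09 FPKM untreated and 5.08, 4.43 and 3.80 with IL-36β, 0.99-fold (0.80 to 1.22). The most abundant were the polymerase gene Polg, 0.98-fold (0.75 to 1.27), and Top1mt, 0.96-fold (0.76 to 1.21). For mitochondrial RNA processing, 10 of 19 were above 0 with a median of 0.00, with Rexo2 at 1.04-fold (0.82 to 1.31), Grsf1 at 1.05-fold (0.92 to 1.21) and Fastkd3 at 0.77-fold (0.62 to 0.97, adjusted p 0.434 by limma). For the tricarboxylic acid cycle, which supplies the chain with electrons, 13 of 18 were above 0 with a median of 0.08. Mdh2 was 1.09-fold (0.95 to 1.26) and Idh3g, a subunit of isocitrate dehydrogenase, 1.22-fold (1.04 to 1.43, adjusted p 0.393).

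The authors' deposited table of 660 genes, 0 of which has an adjusted p under 0.05 in it, holds 5 of the 99 genes, all higher with IL-36β. Set against the 12618 genes tested here, 660 is a share of similar size to 5 of 99. That table also has columns of 4 libraries with no matching label, so its folds and p-values may rest on other libraries than those analysed here. The authors' deposited table gives log2 fold changes of 0.32 for Ndufab1 (p 0.0401), 0.26 for Atp5d (p 0.0363), 0.24 for Ndufa8 (p 0.0434), 0.23 for Ndufb6 (p 0.0315) and 0.21 for Ndufv1 (p 0.0452), with DESeq2 named in the submitters' processing notes and an adjusted p of 0.999 for each. Ndufab1, the mitochondrial acyl carrier protein that is also a complex I subunit, was at 4.84, 4.61 and 4.20 FPKM untreated and 5.19, 5.38 and 5.67 with IL-36β in the libraries analysed here. Its groups did not overlap, and its fold was 1.17 (1.00 to 1.38, adjusted p 0.491 by limma).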

How the data were processed

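RNA libraries were made from untreated and IL-36β-treated cells with a stranded kit for polyadenylated mRNA for the Illumina NextSeq, as the labels' protocols say. The submitters' processing notes name HISAT2 2.05, featureCounts 1.50-p3, StringTie, fastp, the build GRCm38 and DESeq2 1.38.3; no settings are given there. The authors deposited FPKM for 54532 genes, and, for 660 genes, raw counts, log2 fold changes and p-values. In the deposited tables, 8 columns belong to 4 libraries with no matching label and were not used. Multiplied by gene length and a divisor per library, 100% of FPKM gave whole reads within 0.01, equal to the deposited counts in 660 of 660 genes. Reads per FPKM and kilobase were 16.24 in untreated library 1, with 15790499 reads assigned to genes, and 18.19 in IL-36β library 3, with 18938592. The factor per library was thus not proportional to the total of assigned reads.

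IL-36β and untreated libraries were compared two-sidedly on log2(FPKM + 0.5) in limma 3.58.1 (R 4.3.3, prior variance with a trend), over 12618 genes that reached 0.5 FPKM in 3 or more of 6 libraries, adjusted by Benjamini-Hochberg with a threshold of 0.05. The log2(FPKM + 0.5) scale understates changes of low genes. edgeR 4.0.16 and DESeq2 1.42.0 were run on the recovered reads, and fits were tested on simulated data. Named genes were all mitochondrial genes, the most abundant nuclear gene of each complex, the subunits of complex II, the 4 highest and 4 lowest nuclear folds, isoform families, genes past a threshold in any tool, and the 2 most abundant of each pathway list; further genes were picked with their values in view. Single results of 2 genes are not reported here. The members and lists were chosen with earlier results of these data known. Shared sequence was counted as 50-base windows of GENCODE M21 transcripts; 93 of 99 genes have the same start and end there. Alternatives were other pseudocounts, filters and scalings, blocks, and leaving out each library.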

Additional observations from a re-analysis of the deposited data

How the results depend on the processing

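With 3 libraries a group, folds of about the size of the nuclear median could not be told from the spread for a single gene. The number of genes past the threshold was 0 in limma under every alternative planned, 0 in edgeR and DESeq2 as run once each on all libraries, 0 in edgeR with the set of libraries as a term, and 1 (Ndufa2) in DESeq2 with that term; both fits with the term were added after the data were examined. The nuclear median of 0.17 was 0.09 after scaling to TPM and 0.08 after scaling to the summed FPKM of nuclear genes. Both settings, which are close to each other, moved the median over all genes from 0.00 to -0.08. With 1 library left out the nuclear median was 0.11 to 0.19. The mitochondrial median was -0.13 to 0.08 with 1 library left out, and the mitochondrial minus nuclear difference -0.30 to -0.07. The 24 nuclear genes without overlap became 8 (TPM), 6 (summed nuclear FPKM) and 12 (quantile scaling, 8.05% of all genes), and 26 to 41 with 1 library left out (11.9 to 16.7% of all genes). Of 755 alternative values for 36 named genes, 59 had the other sign, in 19 genes, and 1 was past the threshold, that of Ndufa2 at a log2 fold change of 0.48.

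A replicate block by the number in the titles called 0 genes, with a nuclear median of 0.17 and 71 of 79 genes above 0; a replicate block by library letter called 0, with medians of 0.19 (nuclear) and 0.12 (mitochondrial). Whether the numbers or letters pair the samples could not be settled. Deviations of same-numbered libraries correlated at 0.21, -0.14 and 0.21 across genes, and not every library correlated best with its own number. Those of same-lettered libraries correlated at 0.21 (A) and 0.28 (D). Deviations from a mean of 3 libraries depend on each other, so these correlations cannot decide it. The cause of these changes was not tested.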

Other observations

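The rest of the mitochondrial genome was measured beside its protein genes. The ribosomal RNA genes mt-Rnr2 and mt-Rnr1 were at 209 ± 24.0 and 152 ± 2.71 FPKM (SD, n = 3) in untreated libraries and at 230 ± 50.0 and 165 ± 34.3 with IL-36β in these libraries of polyadenylated RNA, below mt-Co1. Of the 22 transfer RNA genes, 8 lie on the minus strand and 14 on the plus strand. The minus-strand genes had a median of 11.1 FPKM and 4 of 8 had a mean of at least 10 FPKM, led by mt-Tp at 446 ± 67.0 untreated and 452 ± 39.2 with IL-36β. The plus-strand genes had a median of 0.68 FPKM and 1 of 14 reached 10 FPKM, mt-Tl1 at 20.2 ± 6.53 and 15.9 ± 4.47. No source used here gives the strand setting that was counted with.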
